A study of Citrullus lanatus with 6 samples.

Results

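Plastocyanin (ClCG05G015390, PetE) and the gamma chain of chloroplast ATP synthase (ClCG03G004720) were followed in watermelon leaves under short-term salt stress. They are 2 of the 23568 gene models with a row in the expression table. Both were picked by name with their lower level in salt already known, so the difference between treatments is given for them as a description, with no test. Leaves of the cultivar Crimson Sweet were taken from seedlings 6 weeks old that had been lifted from the growth medium, washed and kept in tubes for 7 h, with 3 libraries for 300 mM NaCl and 3 for purified water. According to the labels each library came from a separate plant, and the washing and the tube were common to both treatments. The labels are in conflict, since the titles and the stress field of the samples call the stressed plants drought-stressed, whereas their protocol field, the growth protocol, the title of the series and the paper give salt, which was followed here. Spread between libraries therefore covers plants of 1 cultivar in 1 experiment.

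Photosynthetic electrons leave the cytochrome b6f complex on plastocyanin, a small copper protein of the thylakoid lumen, which hands them to photosystem I. The protons moved along the way drive chloroplast ATP synthase, and its gamma chain is the rotating shaft that couples the ring in the membrane to the catalytic head. In plants the gamma chain also carries a disulfide that thioredoxin reduces in the light, by which the enzyme is switched on. Plastocyanin and the gamma and delta chains are nuclear genes, whereas the alpha, beta and epsilon chains of the chloroplast enzyme are encoded in plastid DNA.

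The values were FPKM, the fragments of a gene over its length in kilobases and over the fragments of the library. The fragments behind them, recovered from the FPKM values as whole numbers within 0.002 fragments, came to 18979423 to 20118169 per salt library and 18838185 to 21258223 per control library. A gene of 1 kb with 1 fragment would stand at 0.0497 to 0.0527 FPKM in salt and 0.047 to 0.0531 FPKM in control libraries. Of the 11 chlorophyll a-b binding antenna genes, which mark green leaf tissue, 10 were well above this in all 6 libraries, and ClCG03G006930 was at 0 to 0.13 FPKM in salt and 0.88 to 1.95 FPKM in control. For photosynthesis genes the libraries of 1 treatment stood apart from each other. The FPKM of the 32 genes of the study's photosynthesis and antenna groups, plastocyanin and the gamma chain included, summed to 4728, 734 and 2730 in salt replicates 1, 2 and 3, against 12864, 12731 and 20491 in control replicates 1, 2 and 3. Salt replicate 1 was the highest of the salt libraries, salt replicate 2 the lowest, and control replicate 3 the highest of all 6. Values without these libraries are therefore given beside the results.

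Plastocyanin had 200.0, 7.97 and 38.3 FPKM in salt replicates 1, 2 and 3, against 369, 383 and 968 FPKM in control replicates 1, 2 and 3. Every salt library was below every control library. The salt value lowest of all, that of replicate 2, rested on 77 fragments over a gene of 504 bases, which gives an exact Poisson 95% interval of 6.29 to 9.96 FPKM. Salt replicates 1 and 3 had 1913 and 388 fragments, and the control libraries 3856, 4101 and 9186. The intervals cover counting error only, and the 3 salt values lay far outside those of each other. The mean was 82.1 ± 103 FPKM in salt and 573 ± 342 FPKM in control (SD, n = 3 each). On the log2(FPKM + 0.5) scale plastocyanin was different by −3.67 (SE 1.01), salt minus control.

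The gamma chain had 120.2, 6.82 and 28.1 FPKM in salt replicates 1, 2 and 3, against 627, 439 and 756 FPKM in control replicates 1, 2 and 3. Here too the treatments did not overlap, and the order of the salt libraries was that of plastocyanin. These values stood on 2581, 148 and 639 fragments in salt and 14711, 10556 and 16106 in control, over a gene of 1131 bases. The interval of salt replicate 2 was 5.77 to 8.01 FPKM. The mean was 51.7 ± 60.3 FPKM in salt and 607 ± 159 FPKM in control (SD, n = 3 each), and the log2 difference was −4.34 (SE 0.865). In leaf RNA of this kind, fewer cells of a type and less RNA per cell cannot be told apart.

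**Figure D1:**
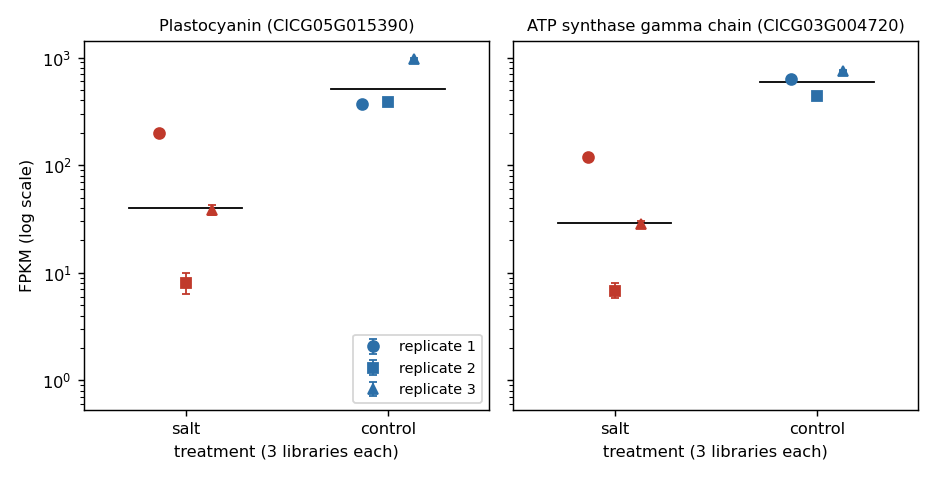
FPKM (log axis) of plastocyanin, left, and ATP synthase gamma, right, in each salt and control library, with the replicate number by symbol, exact Poisson 95% intervals as bars and the mean of log2(FPKM + 0.5) of the treatment as a line. All 3 salt libraries lie below the 3 control libraries in both genes, with salt replicate 2 at 7.97 and 6.82 FPKM.

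On the deposited values, differences of this direction were frequent in the table. Of 16638 genes whose mean over the libraries reached 0.5 FPKM, both genes among them, 43.4% had all salt libraries below all control libraries. In the test over all genes (limma, adjusted p below 0.05), 34.2% were lower and 13.6% higher in salt, but these shares depended on the scaling. When each library was scaled by its median ratio to the mean library, 20.9% were lower and 22.4% higher. The median log2 difference over all genes tested was −0.57, so that relative to the median gene plastocyanin was at −3.10 and the gamma chain at −3.77. Few genes lay lower than these, namely 255 genes (1.53%) with a log2 difference below that of plastocyanin and 113 genes (0.679%) below that of the gamma chain. Over the alternatives the share for plastocyanin was 0.691% without salt replicate 1 to 4.87% without salt replicate 2. For the gamma chain it was 0.367% without salt replicate 1 to 2.49% in a fit on recovered fragments. Under this median-ratio scaling the median gene moved to −0.05 and the log2 differences to −3.10 for plastocyanin and −3.77 for the gamma chain, which put them at −3.05 and −3.72 relative to the median gene. Scaled in this way, plastocyanin stood at 209, 11.5 and 43.4 in salt against 305.0, 305.0 and 749 in control. The scaled gamma chain stood at 126, 9.85 and 31.9 in salt against 519, 349.8 and 586 in control. The treatments did not overlap on the scaled values in either gene. The share of all genes without overlap was not computed under this scaling, and the 43.4% above holds for the deposited values only.

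The size of both differences depended on which salt library was included. Without salt replicate 1, log2 differences were −4.83 for plastocyanin and −5.36 for the gamma chain, and without salt replicate 2 they were −2.55 and −3.34. Leaving out control replicate 3 gave −3.22 for plastocyanin and −4.16 for the gamma chain. The direction was the same in all 6 of these subsets. Taking the libraries by number, plastocyanin differed between salt and the control of the same number by −0.88, −5.50 and −4.64 on the log2 scale in numbers 1, 2 and 3. The gamma chain differed by −2.38, −5.91 and −4.73, so that number 1 had the smallest difference in both genes.

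Both genes stood lower in the order of all genes in salt than in control, where they were among the strongest. Of the genes above 0 FPKM, plastocyanin held rank 507, 7819 and 2969 in salt replicates 1, 2 and 3, against rank 257, 265 and 62 in control replicates 1, 2 and 3. The gamma chain held rank 944, 8362 and 3910 in salt, against rank 127, 214 and 93 in control. As a share of the expressed genes, plastocyanin was thus within the first 2.86%, 44.0% and 17.2% in salt and the first 1.45%, 1.54% and 0.349% in control. For the gamma chain these positions were 5.33%, 47.1% and 22.7% in salt and 0.716%, 1.24% and 0.523% in control. Salt replicate 1 had both genes near the top of the list, whereas in salt replicate 2 they were near its middle.

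The distance between the salt libraries was large in relation to other genes. From the lowest to the highest salt library, plastocyanin spanned 25.1-fold, a log2 range of 4.57, and the gamma chain 17.6-fold, a log2 range of 4.04. These spans are on the deposited values. The median-ratio factor was 0.693 in salt replicate 2, against 0.955 and 0.881 in salt replicates 1 and 3, so both spans are narrower on scaled values. Among 11937 genes whose mean reached 5 FPKM, the median range over the salt libraries was 0.83, and 46 genes (0.385%) exceeded plastocyanin and 96 (0.804%) the gamma chain. Control libraries were closer together. Plastocyanin spanned 2.62-fold in control, a log2 range of 1.39 that 1031 genes (8.64%) exceeded, and the gamma chain 1.72-fold, a log2 range of 0.78 that 2995 genes (25.1%) exceeded, with a median range of 0.49.

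The pattern over libraries was common to photosynthesis genes. Salt replicate 1 was the highest and salt replicate 2 the lowest salt library in both genes and in 24 of the 29 other listed photosynthesis genes that reached this mean (82.8%), against 3537 of 11937 of all such genes (29.6%). Control replicate 3 was the highest control library in both genes and in 25 of these 29 (86.2%), against 4814 of 11937 (40.3%). The median salt range of the 29 genes was 2.40. Plastocyanin had a larger salt range than all but 2 of them and the gamma chain a larger one than all but 4. What set the salt plants apart from each other was not tested.

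**Figure D2:**
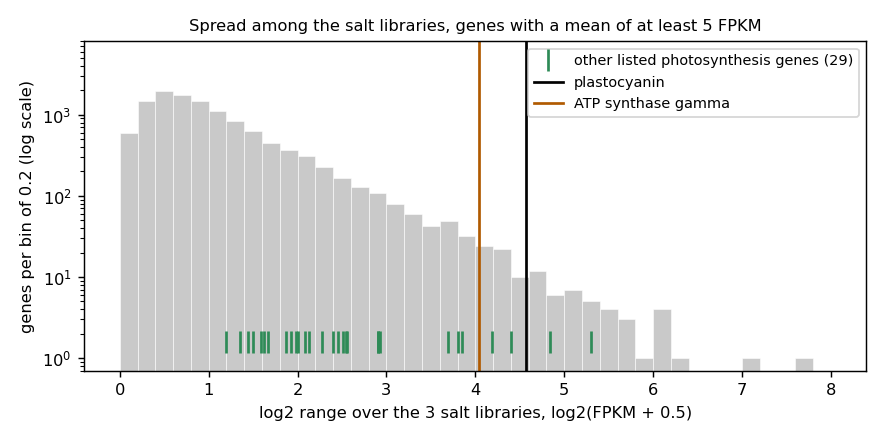
Number of genes (log axis) by their log2 range over the 3 salt libraries, for the 11937 genes whose mean reached 5 FPKM, with ticks for the 29 other listed photosynthesis genes and lines for plastocyanin (4.57) and ATP synthase gamma (4.04). Both lines stand in the tail of the distribution, whose median is 0.83.

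As FPKM is given per length, the levels of both genes can be set side by side. In all 3 salt libraries plastocyanin was the higher of the pair, with gamma chain over plastocyanin ratios of 0.601, 0.857 and 0.734. In control the ratios were 1.70, 1.15 and 0.781, so the gamma chain was higher in replicates 1 and 2 and lower in replicate 3. The ratio of control replicate 3 lay within the salt range, so the order of the pair did not separate the treatments. The mean log2 ratio differed by −0.67, salt minus control, with an SD of 0.26 in salt and 0.56 in control (n = 3 each).

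Both genes were next set against subunits with which their proteins work. The study had listed these subunits as changed on these same libraries, so their differences and p-values are a description only. PsaF (ClCG01G009000), the photosystem I subunit at which plastocyanin docks in the lumen, had 193, 25.4 and 110 FPKM in salt against 328, 289 and 725 FPKM in control. It fell by 2.32 on the log2 scale (limma, adjusted p = 0.0287). Plastocyanin over PsaF was 1.03, 0.314 and 0.347 in salt and 1.12, 1.32 and 1.33 in control, without overlap. The mean log2 ratio differed by −1.38, salt minus control, which is 0.384-fold, while salt replicate 1 lay near the control values (SD 0.95 in salt and 0.14 in control).

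PsaN (ClCG01G015380), another lumenal subunit of photosystem I, known from Arabidopsis to aid the reaction with plastocyanin, had 47.8, 7.66 and 33.1 FPKM in salt against 102, 106 and 203 FPKM in control. Plastocyanin over PsaN was 4.19, 1.04 and 1.16 in salt and 3.60, 3.60 and 4.77 in control. Salt replicate 1 was within the control range here, whereas salt replicates 2 and 3 were below it. The mean log2 ratio differed by −1.21.

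The delta chain (ClCG08G002530), which fastens the catalytic head of the enzyme to its outer stalk, was the other ATP synthase gene of the study's photosynthesis group, although its description does not name the organelle. It had 119, 27.8 and 90.5 FPKM in salt against 194, 221 and 431 FPKM in control and fell by 1.97 on the log2 scale (SE 0.554, limma, adjusted p = 0.021). Over all alternatives this adjusted p was 0.00836 to 0.0623, and it missed the threshold without control replicate 2 (0.0504) or control replicate 3 (0.0623). That of PsaF was 0.00788 to 0.0828, and it missed the threshold without control replicate 1 (0.055), 2 (0.054) or 3 (0.0828) and under median-ratio scaling (0.055). The gamma over delta ratio was 1.01, 0.246 and 0.310 in salt and 3.24, 1.98 and 1.76 in control, without overlap. The gamma chain was thus below the delta chain in salt replicates 2 and 3, level with it in salt replicate 1 and above it in all control libraries. The mean log2 ratio differed by −2.40, which is 0.190-fold (SD 1.09 in salt and 0.47 in control).

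PsaE (ClCG11G010230), a subunit on the stromal side of photosystem I where ferredoxin is reduced, had 24.97, 1.33 and 3.29 FPKM in salt against 123, 96.8 and 117 FPKM in control. The ratio of the gamma chain over PsaE overlapped between treatments, with 4.81, 5.13 and 8.53 in salt and 5.09, 4.53 and 6.45 in control. The mean log2 ratio differed by 0.17, salt minus control.

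**Figure D3:**
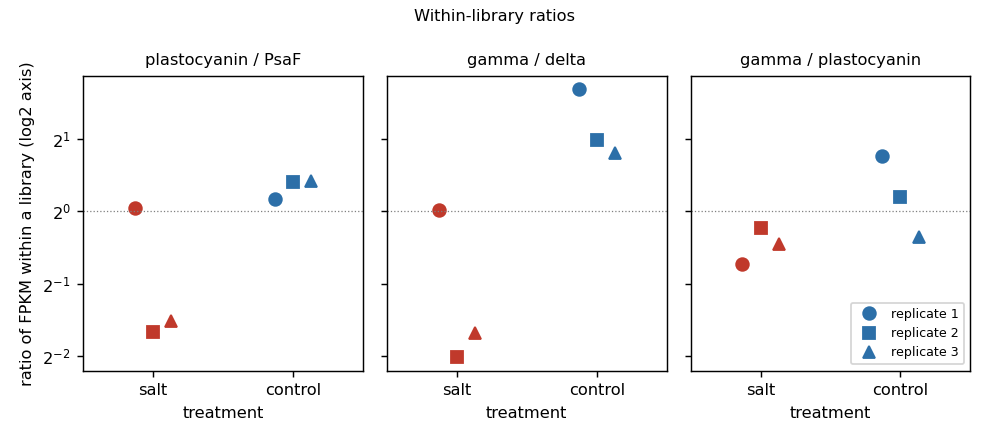
Ratio of FPKM within each library (log2 axis) for plastocyanin over PsaF, gamma over delta and gamma over plastocyanin, with salt left of control and the replicate number by symbol. Salt and control do not overlap for plastocyanin over PsaF and gamma over delta, with salt replicate 1 nearest to control, and overlap for gamma over plastocyanin.

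Seen against the whole group, plastocyanin made up 4.23%, 1.09% and 1.40% of the FPKM of the 32 listed photosynthesis genes in salt replicates 1, 2 and 3, and 2.87%, 3.01% and 4.72% in control. Salt replicate 1 was inside the control range and the other salt libraries below it. The gamma chain made up 2.54%, 0.93% and 1.03% in salt and 4.87%, 3.45% and 3.69% in control, without overlap.

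The 30 other genes of these groups had been listed by the study as changed on these same libraries, so that their direction is not independent evidence. All 30 fell in salt (limma, adjusted p below 0.05), beside 34.2% of all genes (20.9% under median-ratio scaling). In all 30 every salt library was below every control library, beside 43.4% of all genes. The median log2 difference of the 30 was −2.74, beside −0.57 over all genes tested. Lower than plastocyanin in log2 difference were 3 of the 30, and 2 to 6 of them when single libraries were left out. None was lower than the gamma chain, but PsaE (−4.32) was level with it. PsaE was the lower one in 6 of the 15 alternatives, such as without salt replicate 1 (−5.41 against −5.36) or 2 (−3.51 against −3.34), without control replicate 3 (−4.29 against −4.16) and under median-ratio scaling (−3.79 against −3.77). The 8 photosystem I genes had a median of −2.45 and ranged between −4.32 in PsaE and −2.08. The 7 photosystem II genes had a median of −2.90 and reached −3.27, and the 11 antenna genes had a median of −2.75 and reached −3.69. Those below plastocyanin were 2 photosystem I genes and 1 antenna gene. No photosystem II gene was below it with all libraries, whereas without salt replicate 2 the PsbQ gene ClCG03G005130 was at −2.67 and plastocyanin at −2.55.

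Downstream of photosystem I, ferredoxin passes electrons on to ferredoxin-NADP reductase, which makes NADPH. The study's photosynthesis group of changed genes held 3 genes named for ferredoxin or this reductase, so their direction was known from the choice. All 3 were called lower, beside 34.2% of all genes. Ferredoxin C2 (ClCG09G012090) had 7.88, 1.62 and 8.05 FPKM in salt against 39.8, 42.9 and 57.1 FPKM in control, a log2 difference of −3.12. The reductase gene ClCG10G000720 had 137, 23.0 and 101 FPKM in salt against 458, 397 and 760 FPKM in control (−2.91), and ClCG01G011190 had 13.8, 6.60 and 18.8 FPKM in salt against 63.7, 52.6 and 45.4 FPKM in control (−2.11). In all 3 genes the log2 difference was nearer to 0 than in plastocyanin and in the gamma chain.

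Gene models named for other ATP synthase subunits, which the study listed among raised genes on these libraries, stood on the opposite side. Most of their descriptions name no organelle, so that these models may belong to the mitochondrial enzyme as well as to that of the chloroplast. Of 13 such models 12 could be tested, of which 8 rose in salt (limma, adjusted p below 0.05), beside 13.6% of all genes called higher. None fell, and their median log2 difference was 2.31. Some of them, such as ClCG04G004520 and ClCG08G000360 at 0 FPKM in all control libraries, reached the filter mean of 0.5 FPKM only through the salt libraries. In such models a fall could not have been seen, so the direction of this group is no evidence. The models called higher were 9 of 10, 6 of 9 and 6 of 10 tested without salt replicates 1, 2 and 3. Beside them, 11.6%, 12.7% and 12.2% of all genes were called higher. Fewer models could be tested there because some no longer reached the filter. Without control replicates 1, 2 and 3 the models called higher were 7, 4 and 8 of 12, beside 9.82%, 9.79% and 12.4% of all genes. Summed over the 13 models the level was 55.4, 132 and 125 FPKM in salt against 8.99, 12.4 and 23.8 FPKM in control. The gamma chain alone was below this sum in salt replicates 2 and 3 and above it in salt replicate 1 and all control libraries. The alpha chain model ClCG04G004520 had 3.86, 11.97 and 6.86 FPKM in salt and was listed at 0 in all control libraries. The model ClCG07G007520, named as the chloroplast beta chain, had 1.18, 0.992 and 1.24 FPKM in salt against 0.19, 0.0309 and 0.0348 FPKM in control and rose by 1.49 on the log2 scale (limma, adjusted p = 0.016). Its log2 difference was 0.98 with a pseudocount of 1 and 3.85 with recovered fragments. Where it was tested, its adjusted p was 0.00462 to 0.0543 over the alternatives and missed the threshold without control replicate 2 (0.0543). It did not reach the filter without salt replicate 1 or 3 or with a mean of at least 5 FPKM. Whether reads of nearly alike copies were split among these models, or between them and organelle DNA, was not tested, so their levels are uncertain.

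The remaining 4 models did not pass the test. Closest to the threshold was the chloroplast c chain model ClCG10G008500, with 0.539, 1.21 and 0.915 FPKM in salt against 0.0657, 0.192 and 0.109 FPKM in control and an adjusted p of 0.0515 (limma). Over the alternatives it was 0.0169 to 0.127, and 6 of them passed, among them median-ratio scaling (0.0371) and recovered fragments (0.0388). This model did not reach the filter when any salt library was left out. The chloroplast alpha chain model ClCG03G010320 had 6.08, 23.7 and 56.7 FPKM in salt against 3.55, 5.58 and 11.9 FPKM in control (limma, adjusted p = 0.109), and the alpha chain model ClCG11G003810 had an adjusted p of 0.0697. With the replicate number as a block these became 0.0116 and 0.0412, and over all alternatives they were 0.0116 to 0.312 and 0.0219 to 0.146. The epsilon chain model ClCG00G002480 had 14.4, 1.56 and 1.58 FPKM in salt against 1.61, 1.37 and 2.91 FPKM in control, a log2 difference of 0.75 (adjusted p = 0.442) that came from salt replicate 1. Without that library it was −0.20.

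**Figure D4:**
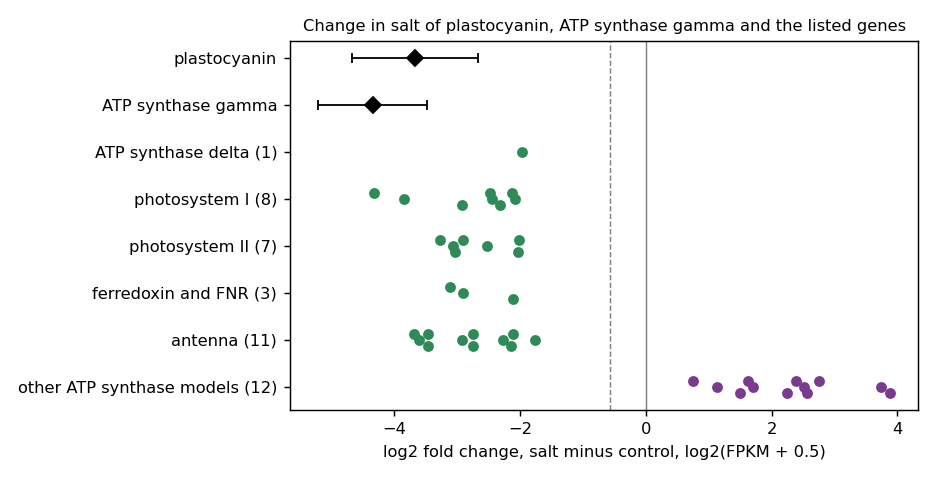
Log2 difference, salt minus control, of plastocyanin and ATP synthase gamma (diamonds with SE) and of each tested gene of the lists (circles, number of genes in brackets), with a dashed line at the median of all genes tested (−0.57). ATP synthase gamma (−4.34) lies level with PsaE (−4.32), the lowest of the listed photosynthesis genes, and the 12 other ATP synthase models lie between 0.75 and 3.88.

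A gene with a name alike to plastocyanin was taken from the study's raised genes, so its direction was fixed by that choice. The gene ClCG06G000290, described as a protein with a plastocyanin-like domain, a fold also found in copper proteins outside the chloroplast, had 47.6, 95.1 and 55.2 FPKM in salt against 25.3, 28.1 and 26.7 FPKM in control. It rose by 1.22 on the log2 scale (SE 0.29, limma, adjusted p = 0.0111), and salt replicate 2, the lowest for plastocyanin, was its highest library. Apocytochrome f, the subunit of the cytochrome b6f complex that reduces plastocyanin, is a plastid gene, and the model of that name (ClCG06G008920) had 1.53, 3.19 and 2.55 FPKM in salt against 0.242, 0 and 0.693 FPKM in control. Its adjusted p was 0.0139 (limma), and 0.00904 to 0.0545 over the alternatives, with 0.0545 without control replicate 2. It was 1 of 19 further models named for plastid genes, all of which rose, beside 13.6% of all genes. Several of the 19, such as ClCG03G005460 at 0 FPKM in all control libraries, reached the filter mean of 0.5 FPKM only through the salt libraries. In such models a fall could not have been seen. Without control replicate 2, 9.79% of all genes were called higher and 16 of these 19 models. Their FPKM summed to 350.5, 386 and 353 in salt against 34.2, 50.0 and 60.7 in control. The ferredoxin-like gene ClCG05G015750 differed by 1.52 on the log2 scale (adjusted p = 0.054, 0.0262 with the block and 0.0142 to 0.169 over all alternatives). These genes were listed by the study as raised on the same libraries.

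The reference genes of the study's quantitative PCR differed much less between treatments than plastocyanin and the gamma chain. Alpha-tubulin (ClCG02G024360) had 18.6, 19.0 and 23.4 FPKM in salt against 21.3, 19.6 and 23.6 FPKM in control, with a log2 difference of −0.08 (limma, adjusted p = 0.79) that was 0.49 under median-ratio scaling. Actin (ClCG02G000680) had 200.5, 124 and 302 FPKM in salt against 320.0, 280 and 308 FPKM in control, a log2 difference of −0.62 (limma, adjusted p = 0.161). For actin this was −0.04 under median-ratio scaling and −0.94 without salt replicate 3, where it was called lower (adjusted p = 0.0421, and 0.0421 to 0.921 over the alternatives). Salt replicate 2, lowest for plastocyanin and the gamma chain, was also lowest for actin, though not for tubulin.

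The genes most like each member of the pair over the 6 libraries were found by the root mean square (RMS) difference of log2(FPKM + 0.5), centred on the mean of each gene, among the 11937 genes whose mean reached 5 FPKM. As the libraries of each treatment are shared by all genes, Pearson's r over n = 6 libraries is a description only. The nearest to plastocyanin was PsaK (ClCG01G025030), a photosystem I subunit beside the antenna, with an RMS difference of 0.193 (r = 0.996). It had 118, 5.99 and 30.9 FPKM in salt against 282, 353 and 703 FPKM in control, so it stood below plastocyanin in every library. An antenna gene, ClCG03G012070, was at 0.369 (r = 0.987), with 322, 14.7 and 97.5 FPKM in salt against 951, 876 and 1236 FPKM in control. The others of the nearest 5 were ClCG06G018280 (0.272), ClCG11G000100 (0.391) and ClCG06G014580 (0.400), for which no description was at hand.

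Nearest to the gamma chain were ClCG08G000170 (0.303), ClCG01G023530 (0.310) and ClCG11G001670 (0.311), followed by PsaE (0.311, r = 0.992) and ClCG04G005980 (0.369). PsaE was the only one of these 5 with a description at hand. No gene was among the nearest 5 of both. The gamma chain was number 22 in likeness to plastocyanin and plastocyanin number 27 in likeness to the gamma chain, of 11936 genes, with an RMS difference of 0.487 (r = 0.982). High correlations were frequent over these libraries, since 681 genes had an r above 0.95 with plastocyanin and 1403 with the gamma chain.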

How the data were processed

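RNA-seq of leaves was analysed in 6 libraries, 3 from salt-stressed and 3 from control seedlings. FPKM was computed by the authors and used as deposited, with no scaling between libraries beyond the division by fragments per library. The authors trimmed paired-end reads and aligned them to the Charleston Gray genome. The paper names Bowtie, TopHat, HTSeq and DESeq for the steps, whereas the submitters' processing notes name fastp, HISAT2 2.1.0, featureCounts and DESeq2, so the tool behind the values is not settled. According to the paper, FPKM rests on uniquely mapped reads, so that copies of a gene that are nearly alike may lose reads.

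Whole fragments were recovered from the steps of the FPKM values (19557 of 19557 genes with a value, within 0.002 fragments) and amounted to 99.58% to 99.67% of a library's total. They served for depth, counting intervals and an alternative fit only. The recovery and the fit were tested on simulated data. For the 16638 genes whose mean reached 0.5 FPKM, log2(FPKM + 0.5) was tested two-sided (limma 3.58.1, R 4.3.3) with a variance trend, and p-values were adjusted over the whole set by Benjamini-Hochberg. Differences on this scale understate changes of weak genes. Python 3.11.15, numpy 2.4.6, pandas 2.3.3, scipy 1.17.1 and matplotlib 3.10.9 were used for tables and figures.

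The genes and lists were chosen with earlier results of these data known. Named were plastocyanin, the gamma chain, members of the study's photosynthesis and antenna groups, models of other ATP synthase subunits, of apocytochrome f and of plastocyanin-like and ferredoxin-like proteins, the PCR reference genes and the 5 genes nearest to each of the pair. Alternatives covered the pseudocount, the filter on low values, scaling, the variance trend, a replicate block, recovered fragments (limma voom) and leaving out each library. A range over the alternatives leaves out those in which the gene did not reach the filter.

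Deviations from the treatment means correlated between same-numbered salt and control libraries with r = 0.175, 0.105 and 0.128 for numbers 1, 2 and 3, and between others with r = −0.108 to −0.039 (across genes, which are not independent replicates). As deviations are centred on the treatment means, the signs of these values are tied to each other, so they are at most a hint of pairing. The labels do not say what a number stands for, and the main fit left the libraries unpaired. Pairing by number was used only for the replicate block among the alternatives and for the differences given by number.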

Additional observations from a re-analysis of the deposited data

How the results depend on the processing

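The log2 differences of plastocyanin and the gamma chain were negative under every alternative. With other pseudocounts, filters, scalings, variance models and recovered fragments they lay at −3.71 to −3.10 for plastocyanin and −4.38 to −3.77 for the gamma chain, and without single libraries at −4.83 to −2.55 and −5.36 to −3.34. The gamma minus plastocyanin difference on the log2(FPKM + 0.5) scale was −0.66, and −0.94 to −0.38 without single libraries. The 30 other photosynthesis genes were all called lower, and 28 under median-ratio scaling. The count was 29 of 30 without a filter or without a variance trend, and 29 of the 29 tested with a mean of at least 5 FPKM. Without single libraries it was 24 to 30, with 29 genes tested without control replicate 2. Of all genes, 34.2% were called lower, and 20.9% under median-ratio scaling. This share was 28.2% to 38.2% without a filter, with a mean of at least 5 FPKM or without a variance trend. Without single libraries it was 22.3% to 33.8%. The 30 genes had been listed by the study as changed on the same libraries. Their median of −2.74 was −3.22 to −1.93 without single libraries, with −1.93 when salt replicate 2 was left out.

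Over all genes 7950 were called, and 5329 to 7541 without single libraries. With an absolute log2 difference above 1 as well, 7045 were called, 1944 higher (27.6%) and 5101 lower (72.4%), whereas median-ratio scaling gave 3228 higher (51.0%) and 3098 lower (49.0%). Without single libraries 1561 to 1941 were higher and 3617 to 5245 lower. Pairing the libraries by a replicate block gave the same log2 differences for plastocyanin (−3.67) and the gamma chain (−4.34), 8016 genes called and 7293 with the fold limit. Among the other named genes the block added the calls given beside ClCG11G003810, ClCG03G010320 and ClCG05G015750 and changed no other.

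Of 644 results of the 44 other named genes under an alternative, 19 lost and 16 gained a call, and 3 changed sign, none of them called. These were tubulin ClCG02G024360, at 0.49 with median-ratio and 0.01 with common-sum scaling, and the epsilon chain model ClCG00G002480, at −0.20 without salt replicate 1 and at −0.20 to 1.23 over the libraries left out in turn. The cause of these changes was not tested. The fewest fragments stood behind the values of salt replicate 2, with 77 for plastocyanin and 148 for the gamma chain. Its depth was not the lowest, with 19179114 fragments against 18979423 in salt replicate 1.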
